A study of Danio rerio with 12 samples.

Results

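The genes of the pancreatic islet hormones insulin (ins), glucagon (gcga and gcgb) and somatostatin (sst1.1 and sst2), and ppdpfb, which is annotated as a differentiation and proliferation factor of pancreatic progenitor cells, were measured in zebrafish livers after a maize diet. Members were taken by gene name. Probes were taken where the gene symbol of the platform annotation, updated to the current zebrafish name, was 1 of these 6, which gave 10 of 10307 probes with a gene symbol and 6 of 6684 genes. Of the hormone genes, 4 (ins, gcga, sst1.1 and sst2) had 2 probes each, and gcgb and ppdpfb had 1 each. Transcripts of these 3 hormones and of the pancreatic factor were among those the study itself selected on these samples, so that their directions are not independent evidence.

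The livers came from wild-type AB zebrafish fed for 28 days on feed in which 25% or 0% was maize, with Artemia given to both diets as a supplement. By the methods maize took the place of wheat, so that the 0% maize feed held 25% wheat and the 25% maize feed held 0%. Effects of more maize and of less wheat therefore cannot be told apart. The 4 groups were females on 25% maize (pools of replicates 2, 3 and 4), females on 0% maize (replicates 1, 2 and 3), males on 25% maize (replicates 1, 2 and 3) and males on 0% maize (replicates 1, 3 and 4), with 3 pools each and the livers of 10 fish of 1 sex in a pool by the design. RNA was compared on 12 two-colour arrays that formed a closed loop, in which every array set a pool of one diet against a pool of the other, the sexes met on 10 arrays, and every pool was labelled once with each dye. A pool averages its fish, so that the spread between fish was not measured, and the number of arrays limits the precision.

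The deposited values are log ratios of the dyes, read as log2 of Cy5 over Cy3. Base 2 is the convention of limma, and the direction is likely because all 470 values of 47 probes for vitellogenins, the yolk precursors made by the liver of laying females, had the sign it requires on the 10 arrays of both sexes. From these ratios the level of a gene in each pool was solved, relative to the mean of the 12 pools. No absolute level can be had from ratios, so that a level of 0 below means average and neither absent nor present, and levels of different genes cannot be ranked.

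In vertebrates, insulin is made by the beta cells of the islets and directs liver and muscle to take up and store glucose and to make fat. Glucagon, from the alpha cells, directs the liver to release glucose, and somatostatin, from the delta cells, restrains the release of both. The zebrafish genome carries several of these genes as duplicated copies, and gcga and gcgb, which both encode proglucagon, are such a pair. Zebrafish pancreas lies scattered along and within the liver region, and the study describes its samples as holding pancreatic cells besides hepatocytes. In such bulk pools, fewer cells of a type and less RNA per cell cannot be told apart.

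Insulin varied more between pools of 1 group than nearly any other gene. Among females on 25% maize, ins lay at -2.01 and -2.33 in the pools of replicates 2 and 3 and at 2.21 in that of replicate 4, against -0.89, 0.47 and -1.63 in replicates 1, 2 and 3 of females on 0% maize. The highest and the lowest of all 12 pools were thus both females on 25% maize. Among males, ins lay at 1.44, 1.33 and 1.65 in replicates 1, 2 and 3 on 25% maize, against 0.80, 0.24 and -1.28 in replicates 1, 3 and 4 on 0% maize. The male groups did not overlap and the female groups did; all pools on 25% maize lay above all on 0% maize for 7.9% of all genes in males and for 11.8% in females. The group means were -0.71 ± 2.53 in females on 25% maize, -0.68 ± 1.06 in females on 0% maize, 1.47 ± 0.16 in males on 25% maize and -0.08 ± 1.08 in males on 0% maize (SD, n = 3 each).

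**Figure D1:**
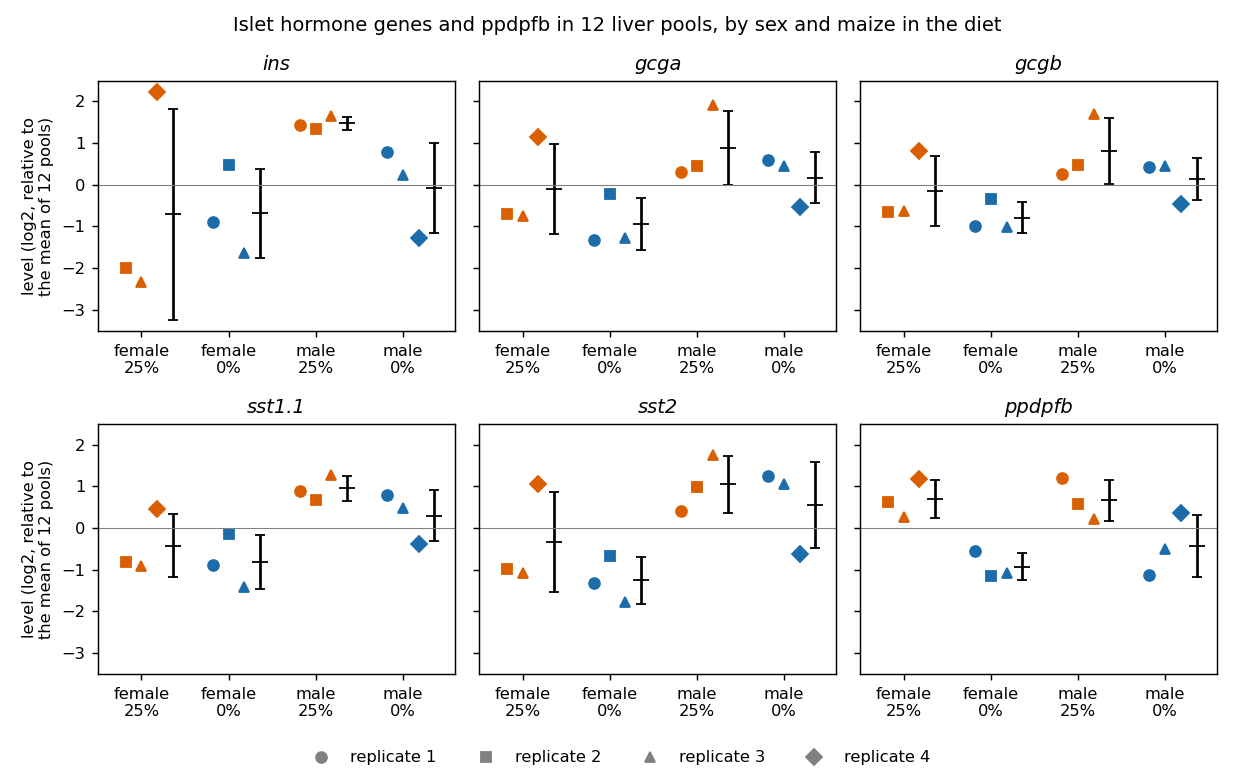
Level of each gene (log2, relative to the mean of 12 pools) in each pool, 1 panel per gene, grouped along the x axis by sex and percent of maize. Symbols mark the replicate number, orange is 25% and blue 0% maize, and bars give the mean and SD of 3 pools. For ppdpfb the 3 females on 25% maize sit between 0.26 and 1.18, all above the 3 on 0% maize (as for 11.8% of all genes). For every hormone gene the female groups overlap.

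The proglucagon genes moved over a smaller range and in nearly the same way as each other. In females, gcga lay at -0.69, -0.76 and 1.14 on 25% maize (replicates 2, 3 and 4), against -1.33, -0.22 and -1.28 on 0% maize (replicates 1, 2 and 3). In males, it lay at 0.31, 0.44 and 1.91 on 25% maize (replicates 1, 2 and 3), against 0.58, 0.45 and -0.54 on 0% maize (replicates 1, 3 and 4). The diets overlapped in both sexes, with 1 pool on 25% maize standing above all others in each sex, replicate 4 in females and replicate 3 in males. For gcgb, with the pools in the same order, the levels were -0.66, -0.63 and 0.82 in females on 25% maize, against -0.99, -0.35 and -1.02 in females on 0% maize. In males, gcgb lay at 0.25, 0.47 and 1.71 on 25% maize, against 0.42, 0.44 and -0.45 on 0% maize, so that the same pools stood out and the diets overlapped again.

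As the mean of the probes of a gene, replicate 4 on 25% maize was the highest female pool for the somatostatin genes too. In females sst1.1 lay at -0.82, -0.90 and 0.45 on 25% maize, against -0.89, -0.15 and -1.42 on 0% maize. In males, sst1.1 lay at 0.90, 0.68 and 1.27 on 25% maize, against 0.79, 0.49 and -0.39 on 0% maize. By this mean of the probes, the 3 females on 25% maize all lay below the 3 males on that diet (as for 26.4% of all genes). The diets overlapped in both sexes. For sst2, the levels were -0.99, -1.07 and 1.05 in females on 25% maize, against -1.33, -0.66 and -1.79 in females on 0% maize. In males, sst2 lay at 0.40, 0.97 and 1.76 on 25% maize, against 1.24, 1.05 and -0.63 on 0% maize. The lowest sst2 pool among males on 0% maize, replicate 4, was also the lowest male pool for ins, gcga, gcgb and sst1.1.

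The separate probes of a gene gave nearly the same profile for 3 of the 4 genes with 2 probes. Over the 12 pools, as a description, the probes of ins correlated with r = 0.99, those of gcga with r = 0.99 and those of sst2 with r = 0.96, and the largest gap between probes in any pool was 0.53, for sst2. The probes of sst1.1 correlated with r = 0.74 and differed by up to 1.87 in a pool. The first probe (A_15_P111799, matched by its accession) spanned 4.37 over the pools, whereas the second (A_15_P403795, named by its symbol only) spanned 1.05. By the first probe alone, females and males on 25% maize overlapped, with female replicate 4 at 1.26 and male replicate 2 at 1.02. By the second, female replicate 4 was the lowest female pool on 25% maize, at -0.37. As probes were averaged per gene, the sst1.1 changes given below lie between those of its probes, which were 0.85 and 0.20 for 25% against 0% maize and -1.99 and -0.51 for females against males.

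**Figure D2:**
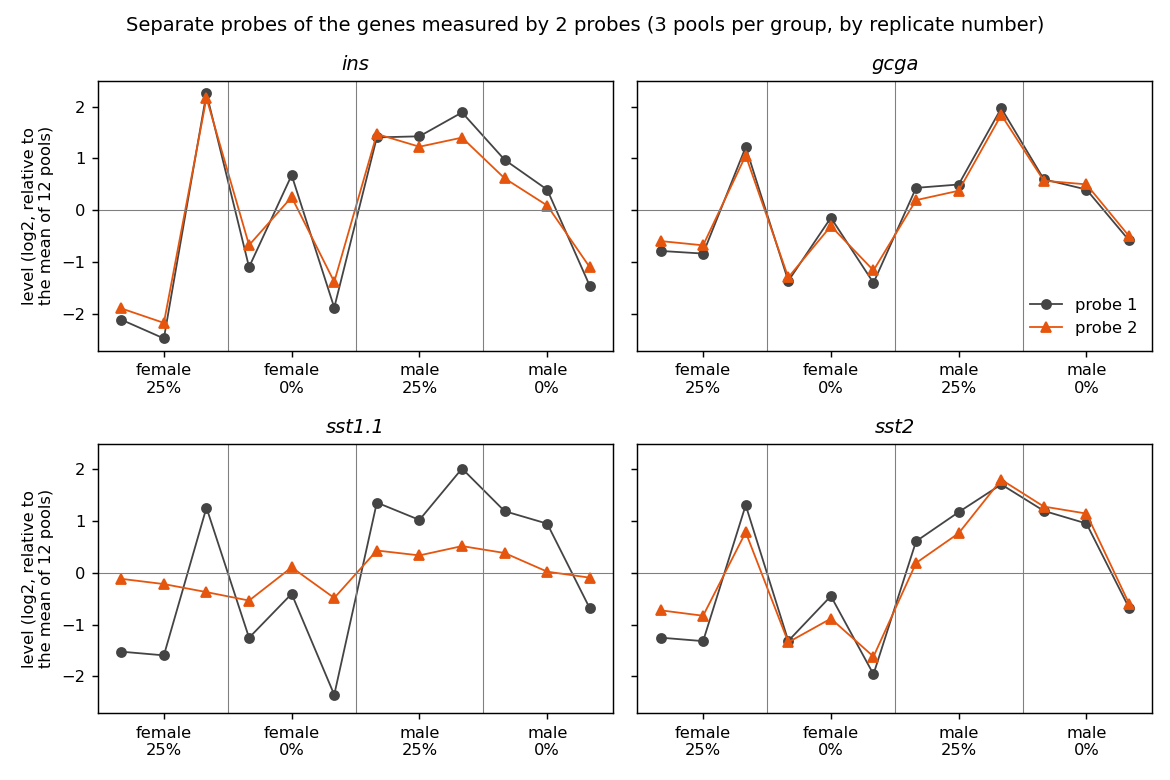
Level in each pool (log2, relative to the mean of 12 pools) of the 2 probes of ins, gcga, sst1.1 and sst2, with the 3 pools of each sex and diet side by side in order of replicate number. Grey circles are the first and orange triangles the second probe; they overlie each other except for sst1.1, where the second spans 1.05 and the first 4.37.

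Spread between pools of the same sex and diet was large for all 5 hormone genes. The SD within groups was 1.48 for ins, 0.82 for gcga, 0.66 for gcgb, 0.60 for sst1.1, 0.91 for sst2 and 0.53 for ppdpfb, where the median of all 6684 genes was 0.19. By this measure ins ranked 5th of all genes, sst2 ranked 35th and gcga 49th. The highest and lowest of the 12 pools differed 23.3-fold for ins, 11.7-fold for sst2, 9.44-fold for gcga, 6.61-fold for gcgb, 6.44-fold for sst1.1 and 5.10-fold for ppdpfb.

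The main question of the design was whether expression differed between the diets. None of the hormone genes passed the test for 25% against 0% maize, while ppdpfb rose (limma, Benjamini-Hochberg adjustment over all 6684 genes, threshold 0.05, 4.94% of all genes called and 2.14% called higher on 25% maize). No hormone probe passed either in limma on single probes, adjusted over all probes (adjusted p between 0.359 and 0.730). For the hormones this differs from the study, which reported their transcripts as upregulated at a false discovery rate under 0.05. Its methods name 4 biological replicates for each diet and sex, where the deposited arrays held 3 pools of each. Its limma model was not given in the sources used, and the reason for the difference was not tested. No hormone gene passed under any alternative of the fit for the mean of both sexes. As the mean of both sexes, the log2 change of ins was 0.76 ± 0.68 (SE), with a 95% interval from -0.74 to 2.27 (adjusted p = 0.690). The change was 0.78 ± 0.39 for gcga, with an interval from -0.08 to 1.65 (adjusted p = 0.353), and 0.65 ± 0.31 for gcgb, from -0.04 to 1.34 (adjusted p = 0.331). It was 0.52 ± 0.29 for sst1.1, from -0.11 to 1.15 (adjusted p = 0.409), and 0.71 ± 0.43 for sst2, from -0.24 to 1.66 (adjusted p = 0.481). All 5 estimates were above 0, with a median of 0.71 against -0.01 over all genes, and every interval held 0 as well as changes of more than 1. Levels of the 5 genes were correlated over the pools (r between 0.83 and 0.99), so that their shared direction is not 5 independent observations. Without the female pool of replicate 4 on 25% maize, the changes were 0.10 for ins, 0.41 for gcga, 0.35 for gcgb, 0.33 for sst1.1 and 0.35 for sst2. Without the male pool of replicate 4 on 0% maize, they were 0.27 for ins, 0.56 for gcga, 0.47 for gcgb, 0.30 for sst1.1 and 0.34 for sst2.

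Within each sex, no hormone gene passed either (88 genes or 1.32% called in females, 2 genes or 0.0299% in males). The female changes were 0.41 for ins, 0.96 for gcga, 0.69 for gcgb, 0.52 for sst1.1 and 1.08 for sst2 (adjusted p from limma between 0.542 and 0.893). The male changes were 1.12 for ins, 0.61 for gcga, 0.61 for gcgb, 0.53 for sst1.1 and 0.33 for sst2. Without the female pool of replicate 4 on 25% maize, the female change was -0.22 for ins, -0.094 for gcga and -0.21 for gcgb, and without replicate 1 of females on 0% maize it was -0.49 for ins, -0.20 for gcga and -0.31 for gcgb. Without replicate 4 of males on 0% maize, the male change was -0.70 for ins, -0.11 for gcga, -0.17 for sst1.1 and -0.73 for sst2. It was -0.63 for gcga, -0.43 for gcgb and -0.33 for sst2 without replicate 1 of males on 0% maize, and -0.48 for gcga, -0.31 for gcgb and -0.19 for sst2 without replicate 3 of males on 25% maize. Each pool was on 2 arrays, and a fit without a pool also lost both. Female replicates 4 on 25% and 1 on 0% maize met on the only array of 2 female pools. Male replicates 3 on 25% and 1 on 0% maize met on the only array of 2 male pools. These changes of sign therefore do not reflect the level of the left-out pool alone. The difference of the diet effect between females and males passed for 0 of 6684 genes by limma, of which 598 had an unadjusted p under 0.05, and the adjusted p of the 6 genes lay between 0.850 and 0.999.

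On the single arrays the 5 hormone genes always took the same sign. They were all higher in the 25% pool on 8 of 12 arrays and all lower on 4, and the 4 were those that set the female pools of replicates 2 and 3 on 25% maize against males on 0% maize. There the ins ratio of 25% over 0% maize was -2.81, -2.24, -2.58 and -1.04. On the 10 arrays of both sexes, sex and diet differed together, so that these signs are not those of diet alone. All arrays of males on 25% maize against females on 0% maize were among the 8. Of the arrays of both sexes, females were higher only for replicate 4 on 25% maize against male replicate 4 on 0% maize. On the array that held only female pools, with replicate 4 on 25% maize over replicate 1 on 0% maize, the ratios were 3.11 for ins, 2.47 for gcga, 1.80 for gcgb, 1.47 for sst1.1 and 2.34 for sst2. On the array with only male pools, replicate 3 on 25% maize over replicate 1 on 0% maize, they were 0.86 for ins, 1.32 for gcga, 1.28 for gcgb, 0.61 for sst1.1 and 0.48 for sst2.

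Between the sexes, 4 of the 5 hormone genes were lower in females (limma, 70.3% of all genes called and 32% called lower in females). As the mean of both diets, sst2 fell by 1.58 in females against males (95% interval -2.55 to -0.61, adjusted p = 0.00767) and sst1.1 fell by 1.25 (-1.89 to -0.61, adjusted p = 0.00269), and both passed with any 1 pool left out. The change of gcga was -1.02 (-1.91 to -0.14, adjusted p = 0.0393) and that of gcgb was -0.92 (-1.63 to -0.21, adjusted p = 0.0237). The gcga call was lost in 8 of the 12 fits without 1 pool, namely without replicates 2 and 3 of females on 25% maize, replicates 1 and 3 of females on 0% maize, replicates 1 and 3 of males on 25% maize and replicates 1 and 3 of males on 0% maize, where the change was -1.17 to -0.73. The gcgb call was lost in 6 of these 8, the exceptions being replicate 1 of females on 0% maize and replicate 1 of males on 25% maize, and the change was -0.81 to -0.68. With -1.46 and an interval from -3.00 to 0.07, ins did not pass (adjusted p = 0.0811), though it did without replicate 4 of females on 25% maize (-2.20, adjusted p = 0.000716) or without replicate 4 of males on 0% maize (-2.24, adjusted p = 0.00209). For ppdpfb the sex change was -0.33 (-0.82 to 0.15, adjusted p = 0.193).

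Taken on each diet alone, the sex difference rested on fewer pools, and no array set females against males of the same diet. On 25% maize, where 39.8% of all genes were called, no gene of the 6 passed, and sst1.1 came closest at -1.25 (limma, adjusted p = 0.0589). On 0% maize, where 56.9% were called, sst2 fell by 1.95 in females against males (adjusted p = 0.0391) and sst1.1 fell by 1.25 (adjusted p = 0.0449), and the other 4 genes did not pass. These calls are for the mean of the probes. In limma on single probes, adjusted over all probes, neither sst1.1 probe passed on 0% maize. The first changed by -2.07 (adjusted p = 0.0677) and the second by -0.42 (adjusted p = 0.0831). For sst2 the second probe passed there (-1.94, adjusted p = 0.0281) and the first did not (-1.96, adjusted p = 0.0632). On 25% maize the second sst1.1 probe passed (-0.60, adjusted p = 0.0321) and the first did not (-1.91, adjusted p = 0.109). The sst2 call on 0% maize was lost in 9 of the 12 fits without 1 pool and the sst1.1 call in 8. The highest adjusted p was 0.380 for sst2, without replicate 1 of females on 0% maize, and 0.373 for sst1.1, without replicate 3 of males on 25% maize. By the methods a replicate of a diet held fish of both sexes, so that its female and male pools shared a tank, for which the variance was estimated at 0. With the tank variance set equal to that of pools, ins passed as the mean of both diets (-1.91, adjusted p = 0.0122), and on 25% maize ins (-2.50, adjusted p = 0.0499), gcgb (-1.18, adjusted p = 0.0497), sst1.1 (-1.47, adjusted p = 0.0121) and sst2 (-1.64, adjusted p = 0.0463) passed in limma. With the replicate number as a fixed block, gcga (-1.02, adjusted p = 0.0881) and gcgb (-0.91, adjusted p = 0.0594) did not pass as the mean of both diets.

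**Figure D3:**
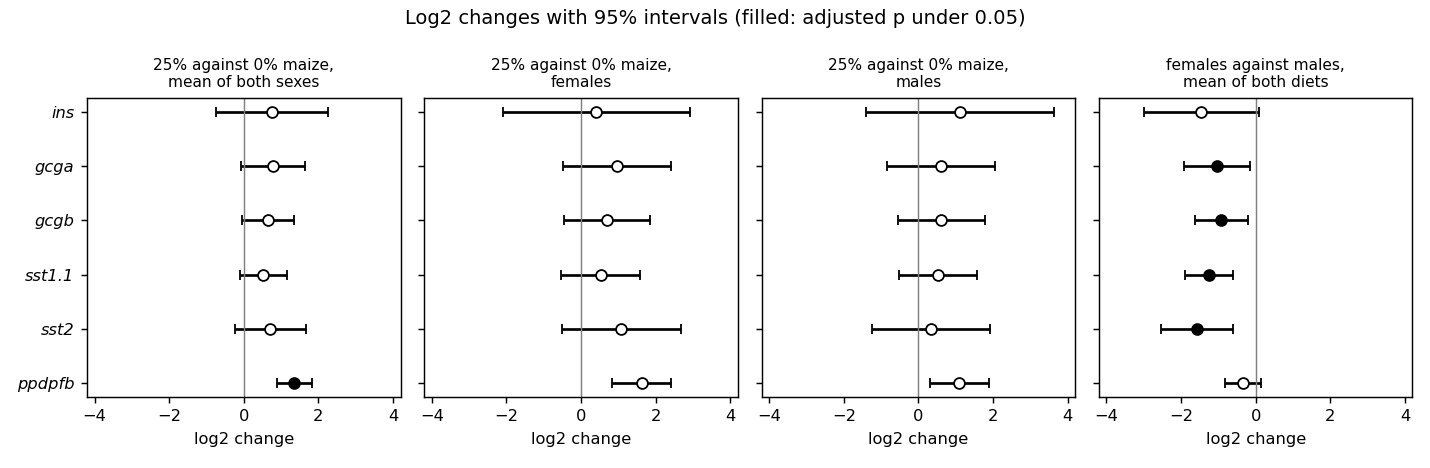
Log2 change and 95% interval of each gene from limma for 25% against 0% maize (mean of both sexes, females, males) and for females against males (mean of both diets). Filled points have an adjusted p under 0.05; for the mean of both sexes that is ppdpfb at 1.36, and for females against males it is sst1.1, sst2, gcga and gcgb.

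The 5 hormone genes varied together from pool to pool. Over the 12 pools the 10 pairs of hormone genes had Pearson's r between 0.83 and 0.99 and Spearman's rho between 0.74 and 0.97, and all 10 passed a two-sided permutation test (100000 resamples, 15 pairs tested in all; p between 1e-05, the smallest it can give, and 0.00185 for r, and between 1e-05 and 0.00783 for rho; highest adjusted p = 0.00277 for r and 0.0117 for rho). Without the 2 pools farthest from the median, r was 0.81 to 0.99. After the mean of each sex and diet was removed, r was 0.81 to 0.99 and all 10 pairs passed an exact permutation test within groups (p between 0.000772 and 0.00926, adjusted p between 0.0116 and 0.0139). Within sexes the pairs had r between 0.84 and 0.99 among the 6 female pools and between 0.75 and 0.996 among the 6 male pools. Neighbouring pools of the loop share an array, so that their solved levels share its error.

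Among all 6683 other genes, the gene most like gcga was gcgb (r = 0.99) and the gene most like sst1.1 was sst2 (r = 0.96), in either direction, and for ins it was sst1.1 (r = 0.88). For ins and gcga all 4 other hormone genes were among the 10 most similar genes, and 3 of them were for gcgb, sst1.1 and sst2 each. These ranks are descriptions over the 12 pools.

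The level of ppdpfb was above 0 in all 6 pools on 25% maize and in 1 of the 6 on 0% maize. The protein is named after a factor of pancreatic progenitor cells, and the array carries 1 probe for it. In females ppdpfb lay at 0.63, 0.26 and 1.18 on 25% maize (replicates 2, 3 and 4), against -0.56, -1.16 and -1.08 on 0% maize (replicates 1, 2 and 3). The female groups did not overlap, and all females on 25% maize lay above all on 0% maize for 11.8% of all genes. In males it lay at 1.196, 0.58 and 0.22 on 25% maize (replicates 1, 2 and 3), against -1.12, -0.52 and 0.36 on 0% maize (replicates 1, 3 and 4), so that a male pool on 0% maize lay above the lowest on 25% maize. The group means were 0.69 ± 0.47 in females on 25% maize, -0.93 ± 0.33 in females on 0% maize, 0.66 ± 0.49 in males on 25% maize and -0.43 ± 0.75 in males on 0% maize (SD, n = 3 each).

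As the mean of both sexes, ppdpfb rose by 1.36 ± 0.21 (SE) on 25% against 0% maize, 2.56-fold, with a 95% interval from 0.88 to 1.83 (limma, adjusted p = 0.00681). The call held with any 1 pool left out (1.22 to 1.498, adjusted p from 0.00669 to 0.0464) and was lost where every array was scaled to the same spread (1.52, adjusted p = 0.218), a setting in which 0 of 6684 genes passed in limma where 330 did without it. In females alone the change was 1.62 (0.83 to 2.41, adjusted p = 0.0586) and in males 1.09 (0.30 to 1.88, adjusted p = 0.278), and neither passed. The female change passed without replicate 3 of females on 25% maize (1.88, adjusted p = 0.0247), replicate 2 of females on 0% maize (1.46, adjusted p = 0.044) or replicate 4 of males on 0% maize (1.83, adjusted p = 0.0308). On the arrays ppdpfb was higher in the 25% pool on 12 of 12, by 0.04 to 2.49, as were 0.643% of all genes, and on 11 of 12 once its mean dye difference of 0.14 was removed, where 1.89% of genes were higher on at least 11. The single-sex arrays gave 1.88 for females and 1.48 for males.

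The paralogue ppdpfa was measured as well. Its change for 25% against 0% maize was -0.12 (limma, adjusted p = 0.698) and it fell by 0.62 in females against males (adjusted p = 0.000641). Over the pools it correlated with ppdpfb with r = -0.06, given as a description.

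**Figure D4:**
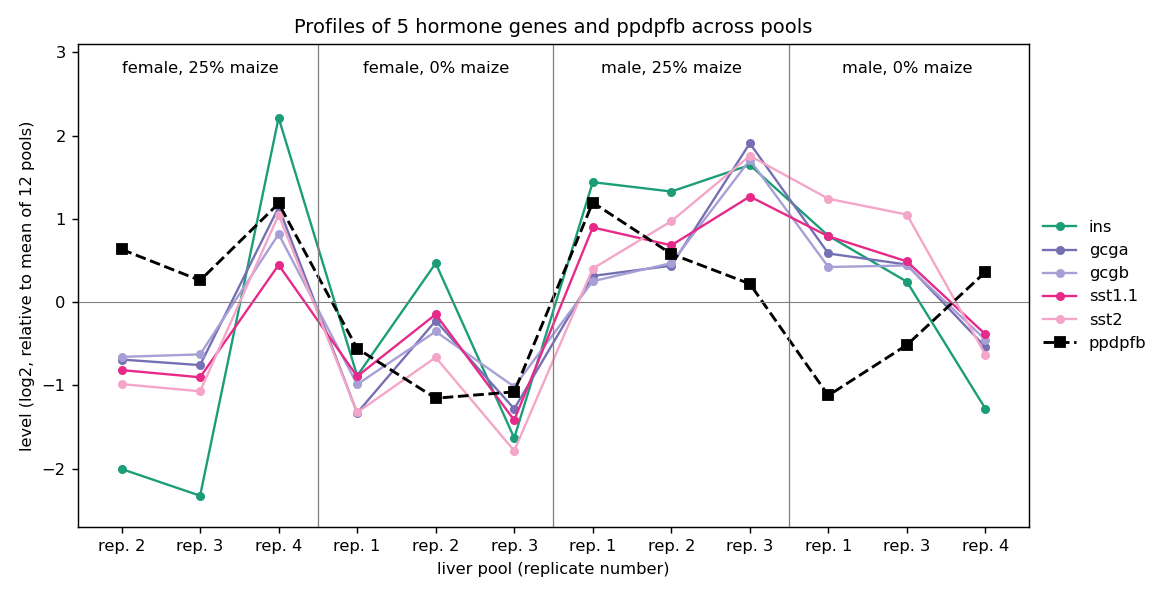
Level (log2, relative to the mean of 12 pools) of the 5 hormone genes (coloured lines) and ppdpfb (dashed black line) in each pool, with the pools along the x axis by sex, diet and replicate number; lines only join the points of a gene. The hormone lines run close to each other, whereas ppdpfb is above 0 in all 6 pools on 25% maize and below 0 in 5 of the 6 on 0% maize.

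Whether ppdpfb followed the hormones was tested directly. Over the 12 pools r of ppdpfb was 0.26 with ins, 0.33 with gcga, 0.33 with gcgb, 0.30 with sst1.1 and 0.27 with sst2, and rho was 0.12 to 0.25. None passed the permutation test (p between 0.292 and 0.409, adjusted p between 0.380 and 0.409 for r; p between 0.431 and 0.716, adjusted p between 0.588 and 0.716 for rho). With the mean of each sex and diet removed, r was 0.06 with ins, -0.26 with gcga, -0.28 with gcgb, -0.19 with sst1.1 and -0.30 with sst2 (exact permutation test within groups, p between 0.424 and 0.875, adjusted p between 0.535 and 0.875). The range was 0.24 to 0.68 among the 6 female pools and -0.39 to 0.19 among the 6 male pools. Without the 2 pools farthest from the median of ins, both females on 25% maize, r with ins was 0.56 (permutation test, p = 0.0936, adjusted p = 0.128). With 1 pool left out, r ranged over 0.08 to 0.40 with ins, 0.20 to 0.45 with gcga, 0.20 to 0.44 with gcgb, 0.12 to 0.47 with sst1.1 and 0.10 to 0.47 with sst2, and none passed. The lowest values came without replicate 4 of females on 25% maize for ins (0.08) and gcga (0.20), and without replicate 3 of females on 0% maize for gcgb (0.20), sst1.1 (0.12) and sst2 (0.10). The highest came without replicate 2 of females on 25% maize for ins (0.40) and without replicate 1 of males on 0% maize for the other 4. The call depended on the scaling for the proglucagon genes, since with every array scaled to the same spread r of ppdpfb was 0.69 with gcga and 0.69 with gcgb (permutation test, adjusted p = 0.0174 each).

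Single pools show where ppdpfb and the hormone genes parted and where they shared a sign. In replicates 2 and 3 of females on 25% maize the mean of the 5 hormone genes was -1.03 and -1.14 while ppdpfb was 0.63 and 0.26, and in replicate 1 of males on 0% maize the hormone mean was 0.77 and ppdpfb -1.12. Signs also differed in males on 0% maize for replicate 3 (hormone mean 0.53, ppdpfb -0.52) and replicate 4 (-0.66 and 0.36). In replicate 4 of females on 25% maize both were high, with a hormone mean of 1.13 and ppdpfb at 1.18. Both were above 0 in all males on 25% maize, with hormone means of 0.66, 0.78 and 1.66 and ppdpfb at 1.196, 0.58 and 0.22. Both were below 0 in all females on 0% maize, with hormone means of -1.09, -0.19 and -1.43 and ppdpfb at -0.56, -1.16 and -1.08. The diet change of ppdpfb exceeded that of each hormone gene by 0.57 to 0.83, yet every 95% interval of these differences held 0, from -1.01 to 2.19 for ins and from -0.04 to 1.71 for sst1.1, so that a larger diet effect on ppdpfb than on the hormone genes was not shown. For females against males, the change of ppdpfb lay above that of sst2 by 1.25 (95% interval 0.03 to 2.46) and above that of sst1.1 by 0.92 (0.02 to 1.81), and the intervals for ins, gcga and gcgb held 0.

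**Figure D5:**
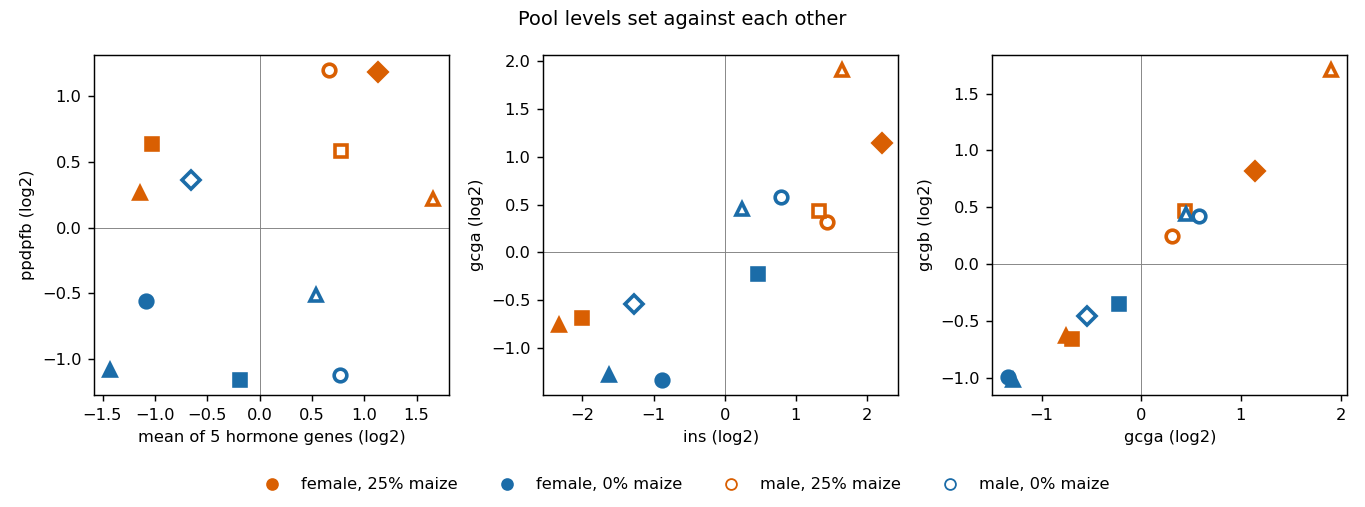
Pool levels (log2, relative to the mean of 12 pools) of ppdpfb against the mean of the 5 hormone genes, of gcga against ins and of gcgb against gcga. Filled symbols are females and open symbols males, orange is 25% and blue 0% maize; gcgb follows gcga closely (r = 0.99), and ppdpfb scatters against the hormone mean (r = 0.30).

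The hormone genes ranked between 937 and 1332 of 6683 in likeness to ppdpfb. The 5 genes most like it were slc25a32a, a carrier of the mitochondrial inner membrane (r = 0.95), bckdk, the kinase that switches off branched-chain keto acid breakdown (r = 0.92), si:dkeyp-72g9.4 (r = 0.91), tpd52l2b (r = 0.88) and arrdc2 (r = 0.87). With the group means removed, r was 0.83, 0.81, 0.78, 0.79 and 0.63 in that order. Their diet changes were 2.07 for slc25a32a, 0.81 for bckdk, 1.01 for si:dkeyp-72g9.4, 0.30 for tpd52l2b and 0.48 for arrdc2, which were not tested anew since these genes were picked for their likeness to ppdpfb. The 5 genes most like the hormone mean were msrb1b, a methionine sulfoxide reductase (r = 0.93), scg5, the secretory granule chaperone 7B2 (r = 0.89), soul4 (r = 0.88), zgc:114046 (r = 0.88) and gip, in mammals the incretin of the gut K cells (r = 0.87). With the group means removed, gip and msrb1b had r = 0.94 and r = 0.96 with the hormone mean. In the same order ppdpfb ranked 2448 of 6679.

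Few other islet genes were among the probes of the deposited table. Of 15 further genes of islet hormones and of hormone families, ghrl, which encodes ghrelin, was measured, with a diet change of 0.08. Of 27 genes of hormone processing and the secretory granule, scg5 and cpe, the carboxypeptidase that trims prohormones, were measured, with diet changes of 0.21 and -0.04. Both were lower in females by the test, as were 32% of all genes. Of 24 islet transcription factors, 5 were measured, 0 passed for diet by limma and 1 had an unadjusted p under 0.05, as did 17.2% of all genes. The largest diet changes of these were 0.48 for foxa2 (limma, adjusted p = 0.0649), which is also a factor of liver and gut, and 0.08 for pdx1, the master factor of pancreas and beta cells. Over the pools, as descriptions, r of the 5 with the hormone mean ranged from -0.11 for pdx1 to 0.68, and r of cpe was 0.46.

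Genes that respond to the hormones in liver were counted from lists of textbook insulin and glucagon targets in mammals. None of 12 glucagon and somatostatin receptor genes was measured. Of 9 measured genes of insulin signalling, 0 passed for diet by limma and 1 had an unadjusted p under 0.05 (17.2% of all genes), the largest changes being -0.22 for ptpn1, the phosphatase that turns the insulin receptor off (adjusted p = 0.114), and 0.19 for insra, an insulin receptor. Of 14 measured genes that insulin represses or glucagon induces, 3 were higher and 1 was lower on 25% maize by the test, where 2.14% of all genes were higher and 2.8% lower. By limma 9 had an unadjusted p under 0.05 (17.2% of all genes), of which tat, pck2 and fbp1b were lower and the others higher. The list median was 0.21 against -0.01 over all genes. The higher ones that passed were igfbp1a (1.24) and igfbp1b (1.99), which bind insulin-like growth factors, and txnipa (1.15), which limits glucose uptake. The lower one that passed was tat (-0.64), a tyrosine-degrading enzyme. The change of pck1, the gatekeeper of glucose synthesis, was 0.10 (adjusted p = 0.838). Other measured genes of glucose synthesis in this list moved both ways and none passed by limma. Their changes were 0.50 for g6pc1a.2 (adjusted p = 0.0742), -0.29 for fbp1b (adjusted p = 0.0794), -0.32 for pck2 (adjusted p = 0.239), -0.18 for g6pc1a.1 and -0.08 for fbp1a. Of 8 measured genes that insulin induces, ppp1r3ca, a glycogen-targeting subunit, was higher (1.03, adjusted p = 0.0061) and acaca, the first enzyme of fatty acid synthesis, was lower (-1.73, adjusted p = 0.0046). In either direction 3 of these had an unadjusted p under 0.05 by limma (17.2% of all genes).

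Markers of other cells were read beside the hormone genes. Of 26 measured genes of exocrine pancreas, 0 passed for diet by limma and 1 had an unadjusted p under 0.05, against 17.2% of all genes, namely cel.2, a bile salt-activated lipase (0.90, adjusted p = 0.0576), followed in size by cela1.1, an elastase (0.30). In the test between the sexes, 23 of the 26 were lower in females, where 32% of all genes were. The mean level of this list was -0.70 to -0.01 in females on 25% maize, -0.89 to -0.62 in females on 0% maize, 0.46 to 0.77 in males on 25% maize and 0.05 to 0.99 in males on 0% maize. Over the pools it correlated with the hormone mean with r = 0.70, with r = 0.41 once group means were removed, and with ppdpfb with r = 0.27, as descriptions. Lists of other cells had r = 0.63 (intestine), 0.64 (erythrocyte), 0.59 (hepatocyte) and -0.68 (ovary and oocyte) with the hormone mean. Once group means were removed, these were 0.40, 0.01, -0.41 and -0.46, so that a correlation with the hormone mean was not particular to the exocrine list. Of 17 genes listed for gut endocrine cells, 4 were measured, of which gcga, sst1.1 and ghrl were also counted above with the islet hormones. All 4 were lower in females by limma, with changes of -1.52 for gip (adjusted p = 0.0027) and -1.45 for ghrl (adjusted p = 1.7e-05). Over the pools ghrl correlated with the hormone mean with r = 0.72 and gip, as given above, with r = 0.87. Most other lists were also lower in females: 10 of 12 hepatocyte markers, 6 of 7 intestinal markers and 5 of 5 erythrocyte markers were lower by limma (32% of all genes called lower). All 9 of 9 markers of ovary and oocyte were higher in females (38.3% of all genes called higher). Between the diets, 2 of the 12 hepatocyte markers were higher on 25% maize, where 2.14% of all genes were. They were apobb.1 (0.50), the core protein of lipoprotein particles, and rbp4 (0.83), the retinol carrier of plasma. The apobb.1 change was 1.09 in females (limma, adjusted p = 0.0118) and -0.08 in males (adjusted p = 0.909), and that of rbp4 was 0.64 in females and 1.02 in males. No intestinal, erythrocyte or ovary marker passed for diet. As the mean of both sexes, the largest changes were 0.67 for fabp1b.1 and 0.63 for apoa4b.1, 0.42 for hbba1 and 0.39 for hbaa1, and -0.37 for zp3a.2 and -0.21 for zp2.1. For the 7 intestinal markers, the female changes were -0.31 to 1.96 and the male changes -1.09 to -0.02, and none passed in either sex by limma. The mean level of the intestinal list was -0.21 in females on 25% and -1.40 in females on 0% maize. In males it was 0.51 on 25% and 1.09 on 0% maize. Since the ratios give no absolute levels, no list could be checked for being at 0 in these livers. Their part in the sex difference of the hormone genes was not tested.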

How the data were processed

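Livers of zebrafish on 25% and 0% maize were compared on two-colour Agilent arrays. After spot quantification with GenePix Pro and processing with limma, of a version not given in the sources used, the authors deposited a dye log ratio (taken as log2) of 12275 probes on every array, with no missing values. How background, normalization and probe filter were handled was not given there either. Array medians lay between -0.05 and 0.04.

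Symbols of 10307 probes were updated through RefSeq's GRCz12tu gene table (9007 by accession, 976 as current symbols, 317 as synonyms, 7 kept), 2646 of them changing, and 1968 probes had none. The array names no genome build, so no coordinates are given. The mean over the probes of a gene was fitted in R 4.3.3 with limma 3.58.1 on the 4 groups and the dye, after whitening for pools shared between arrays (variance ratio 2.91 for pools and 0 for tanks, by restricted maximum likelihood). The fit left 8 residual degrees of freedom. Its adjusted p-values are Benjamini-Hochberg values over all 6684 genes (12275 probes for single probes), with a threshold of 0.05. Sexes and diets came from the labels, and 0 columns were left unassigned. The steps were tested on simulated data. Correlations were tested with scipy 1.17.1.

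The genes, lists and tests were chosen with earlier results of these data known. Named were the 6 genes, up to 4 genes of each list past the test in a diet contrast, or otherwise the 2 with the largest diet change, and the 5 genes most like ppdpfb or the hormone mean. Genes of glucose synthesis among those that insulin represses or glucagon induces were named besides. Alternatives changed the scaling and weighting of arrays, the treatment of pools, tanks, replicate numbers, dye and probes, and left out each pool. Figures were drawn with matplotlib 3.10.9.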

Additional observations from a re-analysis of the deposited data

How the results depend on the processing

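The rise of ppdpfb on 25% maize as the mean of both sexes kept its direction under all alternatives run and its call under all but 1. With each array scaled to one spread it was 1.52 and did not pass. That scaling also ended the calls for females against males of gcga (-0.70), gcgb (-0.66) and sst2 (-1.22), and, on 0% maize, of sst1.1 (-0.90) and sst2 (-1.77). It turned the difference of the diet effect between females and males to -0.40 for gcga, -0.99 for gcgb and -0.36 for ppdpfb, and made the correlation of ppdpfb with gcga (0.69) and gcgb (0.69) pass. The cause was not tested. With arrays taken as independent, which ignores the shared pools, the male diet change was -0.36 for ins and -0.22 for sst2, the difference between the sexes in the diet effect was 2.25 for ins and 0.86 for sst1.1, and females against males passed for ins (-1.56) and ppdpfb (-0.44). In a fit on the 12 solved pool levels, the female diet change was -0.022 for ins and passed for ppdpfb (1.62), the difference between the sexes was -0.042 for gcgb, and females against males on 25% maize passed for sst1.1 (-1.37) and was 0.028 for ppdpfb. With array weights, the female diet change of ppdpfb passed (1.64), the difference between the sexes was 0.11 for sst1.1, and females against males passed for sst1.1 on 25% maize (-1.19) and for gcga on 0% maize (-1.41). Without the dye term, sst1.1 no longer passed for females against males on 0% maize (-1.25).

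The replicate numbers differed between the groups and were not used to pair pools. Deviations of same-numbered pools of the diets correlated above 0.1 in 3 of 4 cases and with -0.17 in the other, too few cases to decide whether the numbers mark a pairing. With the replicate number as a fixed replicate block, 221 genes passed for 25% against 0% maize where 330 did without it. In that block fit, the female diet change of ins was -0.025, the difference between the sexes was -0.078 for gcga, -0.24 for gcgb and -0.14 for ppdpfb, and no pass was left for females against males of gcga (-1.02) and gcgb (-0.91), or on 0% maize of sst1.1 (-1.15) and sst2 (-1.84). With the tank as a random replicate block of the same variance as a pool, females against males passed for ins (-1.91), on 25% maize for ins (-2.50), gcgb (-1.18), sst1.1 (-1.47) and sst2 (-1.64), and on 0% maize for gcga (-1.40) and gcgb (-1.12), and the difference between the sexes in the diet effect of gcgb was -0.065.

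The correlation of ppdpfb with the hormone genes turned negative within sex and diet for gcga (-0.26), gcgb (-0.28), sst1.1 (-0.19) and sst2 (-0.30). Over the 12 arrays' own ratios, which share pools, it was 0.40 for ins, 0.53 for gcga, 0.53 for gcgb, 0.47 for sst1.1 and 0.44 for sst2. The count of genes called for diet was 1145 with arrays as independent, 1136 with array weights, 204 on pool levels, 202 without the dye term, 107 with the tank block and 0 with one spread, and 87 to 542 with 1 pool left out.

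With 1 pool left out, the female diet change ranged over -0.49 to 1.66 for ins, -0.20 to 2.13 for gcga, -0.31 to 1.65 for gcgb, 0.14 to 0.93 for sst1.1, 0.48 to 1.90 for sst2 and 1.31 to 1.98 for ppdpfb. The male diet change ranged over -0.70 to 1.72 for ins, -0.63 to 1.41 for gcga, -0.43 to 1.37 for gcgb, -0.17 to 0.62 for sst1.1 and -0.73 to 0.82 for sst2. The difference between the sexes in the diet effect ranged over -2.21 to 1.95 for ins, -1.61 to 2.76 for gcga, -1.67 to 2.08 for gcgb, -0.44 to 0.94 for sst1.1, -0.34 to 2.23 for sst2 and -0.058 to 1.18 for ppdpfb. Females against males ranged over -2.24 to -0.95 for ins, -1.35 to -0.73 for gcga and -1.18 to -0.68 for gcgb as the mean of both diets. On 25% maize it ranged over -1.82 to 0.54 for gcga, -1.79 to 0.26 for gcgb, -1.35 to -0.79 for sst1.1 and -0.43 to 0.16 for ppdpfb. On 0% maize it ranged over -3.21 to -0.33 for ins, -2.22 to -0.21 for gcga, -2.04 to -0.82 for sst1.1 and -3.16 to -1.42 for sst2. Of 1009 recomputed values, 872 kept direction and call, 65 changed direction, 42 lost and 25 gained a call, and 5 moved. The number of arrays limits all of these, and signal over background was not analysed here.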
